A study of Mus musculus with 19 samples.

Results

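Mitochondria keep a small genome of their own, from which 13 mRNAs are made; every other mitochondrial protein is encoded in the nucleus, made in the cytosol and imported. The 13 mRNAs encode subunits of respiratory complexes I, III and IV and of ATP synthase, the machinery that turns the oxidation of fuel into ATP. Most of them carry poly(A) tails, so poly(A)-selected RNA-seq counts these beside nuclear mRNAs. The part of the 13 in all counts is a routine measure of a library. It can differ with mitochondrial content, with mitochondrial transcription and with the amount and state of the cytosolic RNA. How this part, called the mitochondrial share here, varied among tumours exposed to osimertinib, and which nuclear genes moved with it, is described below.

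The tumours were xenografts of HCC827, a human lung adenocarcinoma line with an activating EGFR mutation, grown in NCG mice, which are immunodeficient. Osimertinib inhibits mutant EGFR, and 6-thio-dG is a nucleoside analogue that telomerase builds into telomeres. The members were the 10 libraries, of 19 in all, from tumours that received osimertinib, 5 with osimertinib alone and 5 with osimertinib and 6-thio-dG (the combination). The other 9 came from tumours given DMSO (control, 5) or 6-thio-dG alone (thio, 4). All came from 1 cell line, and doses, treatment times and mouse ages were not among the sources used. No label ties 1 library to 1 animal, so p-values measure the spread between these libraries. The share is the summed count of ND1, ND2, ND3, ND4, ND4L, ND5, ND6, COX1, COX2, COX3, ATP6, ATP8 and CYTB over the total count. The libraries were chosen by treatment but are ordered by this measured share, so the share itself is given without a test; the other genes are tested on counts and library sizes that leave the 13 mRNAs out.

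The symbols in the count table are human, while the labels give the mouse as organism, and whether mouse reads were set apart is not stated. The tumour line was plain in the data: KRT8, an epithelial keratin, had 4609.8 to 8927 CPM in the 10 libraries and EPCAM, an epithelial adhesion protein, 655 to 939 CPM. Leukocyte and endothelial markers were low but not absent. PTPRC, the pan-leukocyte marker, did not exceed 0.808 CPM and PECAM1, an endothelial marker, did not exceed 1.99 CPM, whereas ACTA1, the skeletal muscle actin, ranged from 1.87 to 248 CPM. Fibroblast markers were uneven: COL1A1 had 368 to 808 CPM and COL6A1 228 to 498 CPM, while DCN did not exceed 0.294 CPM. Which cells the collagen reads came from was not tested. Total counts were 17731752 to 35397346 per library in the 10. CPM is the count scaled to a common library size (1e6) of all counts other than the 13 mRNAs, which keeps the share out of the scale. Marker ranges over the 10 libraries and summed levels are on this scale. Other levels of single genes were divided further by the TMM scaling factor of the library, which ran from 0.93 to 1.07. The 2 scales therefore differ slightly for the same gene.

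The share differed 3.50-fold among the 10 libraries, from 8.62% to 30.2%, which is 1.81 doublings. In osimertinib replicates 1 to 5 it was 9.66%, 10.2%, 8.62%, 16.0% and 15.3% (12.0% ± 3.42, SD, n = 5). In combination replicates 1 to 5 it was 11.0%, 17.8%, 20.9%, 13.2% and 30.2% (18.6% ± 7.54, SD, n = 5). Osimertinib thus had 3 libraries at 8.62% to 10.2% and 2 at 15.3% and 16.0%, while the combination was spread out, and the arms overlapped between 11.0% and 16.0%. The control libraries held 7.04% to 9.29% and the thio libraries 5.27% to 7.86%. All but 1 of the 10 exposed libraries, osimertinib replicate 3, lay above all control and thio libraries. At these depths the 95% exact binomial interval of a share reached at most 0.0214 percentage points to either side, which covers counting error only.

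**Figure D1:**
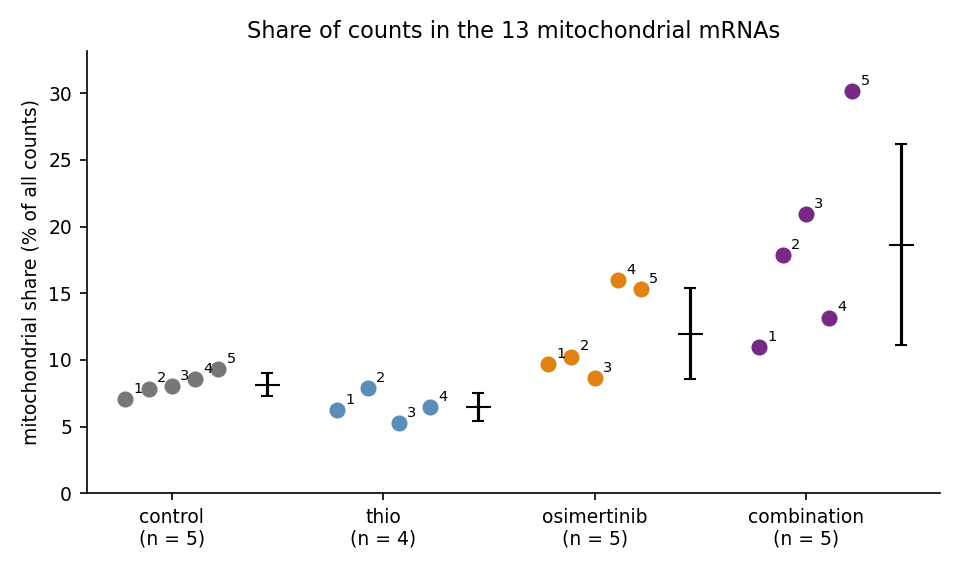
Mitochondrial share (percent of all counts, linear axis from 0) of each of the 19 libraries, numbered by replicate; the black mark and bar are the mean and SD of the group. Combination replicate 5, at 30.2%, is the highest library, and osimertinib replicate 3, at 8.62%, is the lowest of the 10 exposed libraries.

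The share rose as a block, with its makeup nearly fixed. COX1, the catalytic subunit of complex IV, gave the most counts in every one of the 10 libraries, 33.0% to 37.5% of the mitochondrial counts. ND4, of complex I, came next with 14.2% to 16.1%, and COX3, of complex IV, had 9.00% to 11.9%. COX2 (6.49% to 7.83%), ATP6 (7.00% to 7.62%), ND1 (5.46% to 8.31%), ND5 (5.49% to 6.79%), CYTB (4.75% to 5.39%) and ND2 (3.90% to 5.02%) followed. The ranges of COX2 and ND1 overlapped those of ATP6 and ND5, ATP6 was above ND5 in every library, and those of CYTB and ND2 overlapped each other below them. These parts are of counts, not per length, so they do not rank the mRNAs by number of molecules.

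ATP8 had 0.727% to 1.34%, ND4L 0.966% to 1.14% and ND3 0.317% to 0.42%. ND6, the one mRNA made from the other strand of the mitochondrial genome, was lowest at 0.0512% to 0.112% and differed 2.18-fold between libraries. How fully poly-T beads captured ND6 was not tested, so its low part cannot be read as a low level of the mRNA. ATP8 overlaps ATP6, ND4L overlaps ND4, and ND6 faces ND5 without strand in the library kit, so reads at their borders may be split between them. Relative to the other counts, the level of every one of the 13 was between 3.23 (ATP8) and 6.34 (ND1) times as high in its highest as in its lowest library. 2 of them, ATP8 and ND2, departed most from the block as the share rose. The part of ATP8 fell by 0.38 on the log2 scale per doubling of the share and that of ND2 was higher by 0.15. ND1 was split by arm, with 5.46% to 5.76% of mitochondrial counts in all osimertinib libraries and 6.37% to 8.31% in all combination libraries. Within arms its part was also higher by 0.12 per doubling. In combination replicates 1, 4, 2, 3 and 5, the order of rising share, it was 6.37%, 7.03%, 7.67%, 8.31% and 7.75%.

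**Figure D2:**
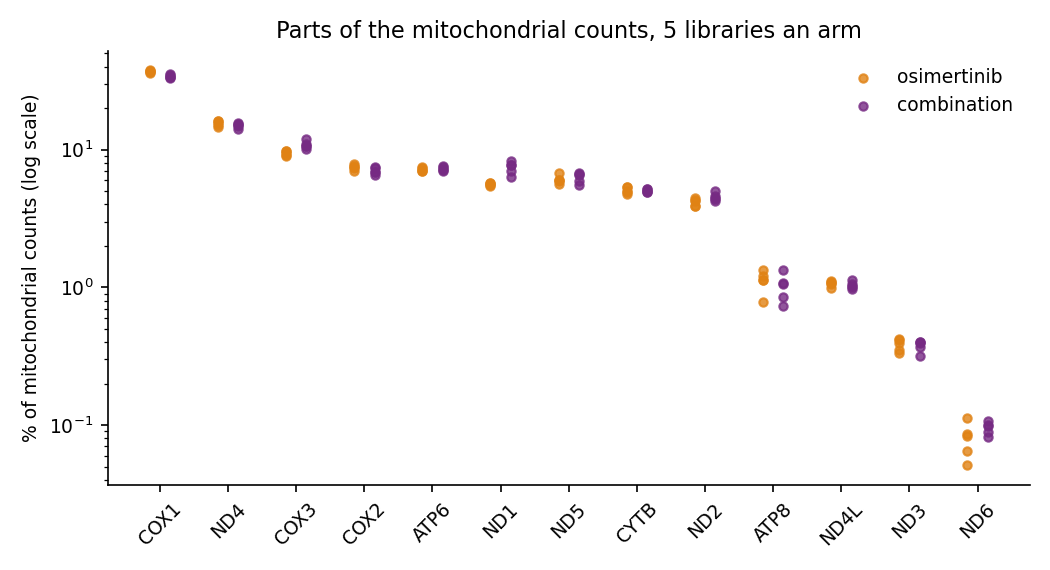
Part of each of the 13 mRNAs in the mitochondrial counts (percent, log axis), 1 point per library, 5 osimertinib and 5 combination libraries. COX1 holds 33.0% to 37.5% in all 10, the order of the 13 changes little between libraries, and ND1 is higher in the combination than in osimertinib.

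Every other gene was then related to the share by a slope, the log2 change in its level for each doubling of the share, with the arm in the fit so that the slope is taken within arms (edgeR's quasi-likelihood test, Benjamini-Hochberg adjusted over all genes tested, called at an adjusted p under 0.05). Of 15639 genes tested, 6172 were called (39.5%), with 2852 higher (18.2%) and 3320 lower (21.2%) as the share rose, and the median slope was 0.0040. Counts of list members below are to be read against these percentages, and for abundant genes against those by level at the end of this paragraph. Upper-quartile scaling moved the median slope to 0.10 and the split to 3738 higher and 2316 lower; with no filter on low counts it was 2295 higher and 4254 lower. Abundant genes fell more often than scarce ones: of 3910 genes with the highest level 36.1% were called lower and 15.0% higher, and of 3910 with the lowest 2.94% lower and 22.6% higher.

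Total counts were lower by 0.45 on the log2 scale per doubling. They were among the 19 library measures tested, but they are the denominator of the share, so their p-value is left out. With the log2 total count in the fit, 1068 genes were called, and with each library thinned to the same count 5588 were. Counts of olfactory receptor genes, the odour receptors of the nose, also rose, by 1.21 per doubling (exact permutation within arms, 2-sided, adjusted p = 0.00584 over 19 library measures, n = 10); with their level in the fit no gene was called by edgeR, against 1732 at an unadjusted p under 0.05. The part of depth and of the olfactory receptor level in the slopes was otherwise not tested. The count of calls rested on a few libraries: 3743 without combination replicate 5, 4082 without combination replicate 1, and 2284 without combination replicates 3 and 5.

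In the lists below, members were listed with earlier results of these data known, and values by library are given in the order of rising share, which is replicates 3, 1, 2, 5 and 4 in osimertinib and 1, 4, 2, 3 and 5 in the combination. Nuclear genes encode the remaining subunits of the same respiratory complexes, and all of complex II. Of 79 nuclear subunits of complexes I to V tested, 4 were higher (5.06%) and 15 lower (19.0%). Their median slope was -0.01, a sign that upper-quartile scaling turns. By arm the median had opposite signs, 0.21 in osimertinib and -0.13 in the combination. Over all genes it was -0.0019 and -0.0061. Complex I had 2 higher and 6 lower of 37, complex II 2 lower of 4, complex III 3 lower of 9, complex IV 1 higher and 1 lower of 11, and ATP synthase 1 higher and 3 lower of 18. The 6 lower in complex I became 3 without combination replicate 5, and the 3 lower in ATP synthase became 6 without osimertinib replicate 4. In complex IV 6 were higher without combination replicate 5 and 3 lower without osimertinib replicate 4. With the total count in the fit, 0 complex I members were called lower (4 at an unadjusted p under 0.05) and 1 higher (9). At that unadjusted p, complex IV had 5 higher and 0 lower, and ATP synthase 5 higher and 2 lower. The median slopes in that fit were 0.24 in complex I, 0.49 in complex IV and 0.26 in ATP synthase. In these complexes and the other lists, counts of 5 or fewer called members often moved by over 1.5 times when 1 library was left out.

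The subunits that were called lower included catalytic and core ones. ATP5F1A, the alpha subunit of the ATP synthase head, had 260.3, 225, 208, 163 and 175 CPM in osimertinib and 203, 166, 136, 90.9 and 71.9 CPM in the combination. It was highest in the libraries of lowest share in each arm and lowest in combination replicate 5, and its slope was -0.91 ± 0.11 (SE, adjusted p = 4.88e-05), a fall of 46.9% per doubling. ATP5F1B, the beta subunit that carries the catalytic sites, had a slope of -0.52 ± 0.11 (SE, adjusted p = 0.00221). UQCRFS1, the Rieske iron-sulfur protein of complex III, had 60.8, 53.3, 46.9, 34.9 and 46.7 CPM in osimertinib and 44.1, 37.2, 30.3, 24.4 and 10.5 CPM in the combination, and its slope was -1.01 ± 0.17 (SE, adjusted p = 0.000324). UQCRC1, a core protein of the same complex, had a slope of -0.77 ± 0.12 (SE, adjusted p = 0.000296). NDUFS1, the largest subunit of complex I, had 166, 139, 133, 109.9 and 101 CPM in osimertinib and 112, 98.8, 96.4, 80.5 and 69.6 CPM in the combination and a slope of -0.53 ± 0.09 (SE, adjusted p = 0.000482). SDHC, a membrane anchor of complex II, had a slope of -0.60 ± 0.12 (SE, adjusted p = 0.00168). COX6B1, a small subunit of complex IV, went the other way, at 0.40 ± 0.11 (SE, adjusted p = 0.013), and was not called without combination replicate 1.

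Of 18 tested genes that copy, pack and transcribe mitochondrial DNA, 4 were lower (22.2%) and 1 higher (5.56%), beside 21.2% and 18.2% over all genes. TFAM, which packs mitochondrial DNA and starts its transcription, had 47.8, 41.2, 37.1, 38.0 and 34.8 CPM in osimertinib and 35.0, 28.7, 27.8, 25.9 and 14.5 CPM in the combination. Its levels in the arms met at one library each, combination replicate 5 was lowest, and its slope was -0.59 ± 0.13 (SE, adjusted p = 0.00211). TFB2M, the other initiation factor, had a slope of -0.51 ± 0.11 (SE, adjusted p = 0.00212), and TWNK, the replicative helicase, -0.53 ± 0.12 (SE, adjusted p = 0.00316). TFAM, TFB2M and TWNK were not called in osimertinib alone. Nor were they called without combination replicates 3 and 5 (edgeR, adjusted p = 0.0918, 0.0898 and 0.154). POLRMT, the mitochondrial RNA polymerase, had 47.4, 52.1, 52.0, 36.5 and 51.3 CPM in osimertinib and 48.8, 46.4, 47.1, 40.7 and 38.8 CPM in the combination; its slope of -0.22 ± 0.11 (SE, adjusted p = 0.12) was not called. MTERF2, of the family of mitochondrial termination factors, had 19.3, 23.8, 20.1, 35.4 and 33.0 CPM in osimertinib and 23.6, 28.9, 35.7, 38.6 and 53.9 CPM in the combination. It was higher in each of the 5 libraries of highest share than in any of the other 5, and its slope was 0.84 ± 0.10 (SE, adjusted p = 5.1e-05). With the total count in the fit, TFAM, TFB2M and MTERF2 were not called. In that fit 1 of the 18 genes was called lower and 0 higher (3 and 1 at an unadjusted p under 0.05).

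Among 20 genes that process or degrade mitochondrial RNA, 7 were lower (35.0%) and 0 higher by edgeR (2 at an unadjusted p under 0.05, 1 by DESeq2); 2 were lower without combination replicate 1 and 3 without combination replicate 5. The 35.0% stands beside 36.1% lower of the 3910 genes of highest level. With the total count in the fit, 0 were called lower (3 at an unadjusted p under 0.05) and 1 higher. GRSF1, an RNA-binding protein of mitochondrial RNA granules, had a slope of -0.56 ± 0.10 (SE, adjusted p = 0.000472). LRPPRC, which stabilises mitochondrial mRNAs, had 308, 269.9, 263, 188 and 184 CPM in osimertinib and 217, 168, 195, 169 and 169.8 CPM in the combination. The call of its slope of -0.39 ± 0.12 (SE, adjusted p = 0.0194) was lost without combination replicate 1. It was also lost with upper-quartile scaling, with the percent share, with the total count in the fit and in the combination alone. Of 12 regulators of mitochondrial biogenesis, 1 was higher and 1 lower. NRF1, a transcription factor for nuclear genes of respiration, had 30.1, 30.8, 34.6, 38.5 and 36.8 CPM in osimertinib and 45.8, 51.7, 59.1, 79.3 and 96.8 CPM in the combination and a slope of 0.63 ± 0.10 (SE, adjusted p = 0.000275). PPARGC1A, a coactivator of the same programme, did not pass the filter on low counts.

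Genes that build and keep mitochondrial protein were more often lower than higher, beside 36.1% lower and 15.0% higher of the 3910 genes of highest level. With the total count in the fit, 2 mitochondrial ribosomal proteins were called lower and 2 higher. In that fit 0 import genes were called lower (5 at an unadjusted p under 0.05), and 3 mitochondrial chaperones and proteases were. Of 76 mitochondrial ribosomal proteins, 29 were lower (38.2%) and 7 higher (9.21%); without combination replicate 5, 14 were lower, and without combination replicate 1, 2 were higher. MRPL37, of the large subunit, had 152, 136, 130.5, 90.3 and 102 CPM in osimertinib and 118, 96.5, 79.8, 55.7 and 38.2 CPM in the combination and a slope of -0.98 ± 0.11 (SE, adjusted p = 3.32e-05), while MRPS25, of the small subunit, had a slope of 0.77 ± 0.11 (SE, adjusted p = 0.000138). Of 77 cytosolic ribosomal proteins, 10 were lower (13.0%) and 3 higher, and the lower count ranged from 1 without combination replicate 5 to 19 without osimertinib replicate 3. Of 21 import genes, 8 were lower (38.1%; 5 without combination replicate 5) and 0 higher by edgeR (1 at an unadjusted p under 0.05, 1 by DESeq2). SAMM50, the core of the sorting and assembly machinery of the outer membrane, had a slope of -0.70 ± 0.12 (SE, adjusted p = 0.000329), and TOMM70, an import receptor, -0.67 ± 0.12 (SE, adjusted p = 0.000607). Of 14 mitochondrial chaperones and proteases, 8 were lower (57.1%) and 1 higher. AFG3L2, a subunit of the inner-membrane m-AAA protease, had 197, 176, 157, 123 and 109 CPM in osimertinib and 159, 112, 102, 72.5 and 61.4 CPM in the combination and a slope of -0.90 ± 0.10 (SE, adjusted p = 3.32e-05). YME1L1, the i-AAA protease, had a slope of -0.67 ± 0.10 (SE, adjusted p = 0.000149). The member called higher was SPG7, at 0.57 ± 0.11 (SE, adjusted p = 0.00109), whose counts are identical to those of another symbol in the table and so cannot be assigned to it alone.

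Most genes of central carbon metabolism fell. Of 22 genes of the TCA cycle, 14 were lower (63.6%) and 0 higher by edgeR (14 and 0 by DESeq2, 15 and 0 at an unadjusted p under 0.05), with a median slope of -0.39; with the total count in the fit, 1 was called lower and 10 at an unadjusted p under 0.05. MDH2, mitochondrial malate dehydrogenase, had 292, 289.9, 276, 192 and 229 CPM in osimertinib and 255, 217, 187, 144 and 77.0 CPM in the combination and a slope of -0.93 ± 0.13 (SE, adjusted p = 0.000126). SUCLG2, a subunit of succinyl-CoA ligase, had 64.9, 60.8, 57.7, 43.4 and 43.4 CPM in osimertinib and 53.3, 42.5, 45.6, 40.6 and 23.3 CPM in the combination and a slope of -0.68 ± 0.12 (SE, adjusted p = 0.000385), the same to 2 decimals in each arm. DLD, a subunit shared by the pyruvate and oxoglutarate dehydrogenases, had a slope of -0.59 ± 0.11 (SE, adjusted p = 0.000773), and FH, fumarase, -0.55 ± 0.11 (SE, adjusted p = 0.00137).

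So it was for glycolysis, with 14 of 18 genes lower (77.8%), 1 higher and a median slope of -0.61; 8 were lower without combination replicate 5 and 4 with the total count in the fit. ENO1, enolase, had 1865, 1695, 1728, 1316 and 1162 CPM in osimertinib and 1595, 1244, 1257, 818 and 535 CPM in the combination, nearly in the order of the share, and its slope was -0.92 ± 0.13 (SE, adjusted p = 0.000115). PKM, pyruvate kinase, had 2956, 2657, 2359, 1997 and 1796 CPM in osimertinib and 2286, 1958, 1950.5, 1412 and 1031 CPM in the combination and a slope of -0.74 ± 0.12 (SE, adjusted p = 0.000205). HK1, a hexokinase bound to mitochondria, had a slope of -0.78 ± 0.13 (SE, adjusted p = 0.000268), and PGAM1, phosphoglycerate mutase, -0.97 ± 0.17 (SE, adjusted p = 0.000457). Of 21 genes of cholesterol synthesis, 14 were lower (66.7%) and 2 higher, with a median slope of -0.54. With the total count in the fit, 9 were called lower. SQLE, squalene epoxidase, had a slope of -1.01 ± 0.18 (SE, adjusted p = 0.000534). Of 16 hypoxia genes, 1 was higher and 2 lower.

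The unfolded protein response, whose genes help to fold secreted proteins in the endoplasmic reticulum, had most of its members called lower. Of its 18 genes, 15 were lower (83.3%) and 0 higher, by edgeR, by DESeq2 and at an unadjusted p under 0.05 alike, with a median slope of -0.62; 9 were lower without combination replicate 5 and 6 with the total count in the fit. PDIA6, a disulfide isomerase, had 273, 262, 240.5, 185 and 173 CPM in osimertinib and 206, 142, 129.7, 96.8 and 63.7 CPM in the combination. Its level followed the order of the share with few exceptions, and its slope was -0.97 ± 0.11 (SE, adjusted p = 3.32e-05). HSPA5, the main chaperone of the endoplasmic reticulum, had 862, 948, 913, 776 and 704 CPM in osimertinib and 878, 713, 572, 420.0 and 279.9 CPM in the combination and a slope of -0.87 ± 0.14 (SE, adjusted p = 0.000228). XBP1, a transcription factor of the response, had a slope of -0.70 ± 0.10 (SE, adjusted p = 0.000106). Of 14 cytosolic heat shock chaperones, 8 were lower (57.1%), and 7 with the total count in the fit. Their median slope was 0.02 in osimertinib and -0.68 in the combination. Without combination replicates 3 and 5 the median over both arms was -0.14, with 3 called lower and 2 higher. HSPA8, the constitutive HSP70, had 2295, 2228, 2223, 1478 and 1368 CPM in osimertinib and 1984, 1074, 1067, 531 and 419 CPM in the combination and a slope of -1.29 ± 0.16 (SE, adjusted p = 6.15e-05), one of the 10 largest falls of named genes with a mean log2 CPM of at least 2. Of 31 proteasome subunits, 15 were lower (48.4%), but 5 without combination replicate 5 and 1 with the total count in the fit. The ATF4 programme, which answers amino acid shortage and mitochondrial stress, did not move together: of 16 genes 3 were higher and 2 lower. DDIT3, a transcription factor of that programme, had a slope of 0.63 ± 0.11 (SE, adjusted p = 0.000452), and MTHFD2, a mitochondrial folate enzyme, -0.64 ± 0.13 (SE, adjusted p = 0.00117).

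Most genes of cell division listed were called lower. Of 25 DNA replication genes, 15 were lower (60.0%) and 0 higher by edgeR (0 also by DESeq2 and at an unadjusted p under 0.05), with a median slope of -0.49; 8 were lower with the total count in the fit. MCM2, a subunit of the replicative helicase, had 110.1, 91.5, 80.8, 48.6 and 50.8 CPM in osimertinib and 54.0, 38.7, 40.2, 22.9 and 19.2 CPM in the combination, and its slope was -1.10 ± 0.13 (SE, adjusted p = 3.75e-05). MCM4, another subunit, had a slope of -0.93 ± 0.12 (SE, adjusted p = 6.81e-05). Of 24 mitosis genes, 14 were lower (58.3%), but 9 without combination replicate 5 and 3 with the total count in the fit. PLK1, a mitotic kinase, had 93.2, 65.4, 67.6, 53.4 and 48.3 CPM in osimertinib and 66.6, 47.3, 56.0, 37.0 and 25.5 CPM in the combination and a slope of -0.85 ± 0.13 (SE, adjusted p = 0.000203). MKI67, the proliferation marker, had 538, 331, 335, 354 and 219 CPM in osimertinib and 324, 275, 361, 223 and 229.9 CPM in the combination; its slope of -0.49 ± 0.18 (SE, adjusted p = 0.038) was lost without any 1 of osimertinib replicates 3 and 4 and combination replicates 1, 3 and 5.

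The drug target was called lower in the main fit, as were some genes of its pathway. EGFR had 6069, 4713, 4973, 4051 and 3662 CPM in osimertinib and 5414, 4015, 4298, 3952 and 3671 CPM in the combination. The slope of EGFR was -0.42 ± 0.12 (SE, adjusted p = 0.0124), and its call was lost without combination replicate 1. That call was also lost in each arm fitted alone and with the total count in the fit. Of 15 genes that report ERK signalling downstream of EGFR, 6 were lower (40.0%) and 0 higher by edgeR (0 also by DESeq2 and at an unadjusted p under 0.05), among them CCND1, cyclin D1, at -0.64 ± 0.11 (SE, adjusted p = 0.000353) and DUSP4, an ERK phosphatase, at -0.69 ± 0.13 (SE, adjusted p = 0.000674). The 40.0% of ERK genes stands beside 36.1% lower of the 3910 genes of highest level. With the total count in the fit, 0 ERK genes were called (3 lower at an unadjusted p under 0.05). Of 14 BCL2 family genes, 6 were lower (42.9%) and 1 higher. With the total count in the fit, 0 of these 14 were called (2 lower and 1 higher at an unadjusted p under 0.05). BCL2L1, which encodes the survival protein BCL-XL, had 251, 199.6, 227, 133 and 168 CPM in osimertinib and 229.5, 195, 152, 145 and 123 CPM in the combination and a slope of -0.67 ± 0.11 (SE, adjusted p = 0.000244). MCL1, another survival gene, had a slope of -0.53 ± 0.11 (SE, adjusted p = 0.00137); its counts are identical to those of ADAMTSL4-AS1 in the table, so reads of the pair were not separated. BMF, a pro-death BH3-only gene, had 20.9, 30.4, 35.1, 37.3 and 26.2 CPM in osimertinib and 50.3, 42.6, 61.6, 79.9 and 132 CPM in the combination and a slope of 0.83 ± 0.17 (SE, adjusted p = 0.00161), lost without combination replicate 5. TERT, the catalytic subunit of telomerase, did not exceed 0.861 CPM in the 10 libraries, and its slope of 0.57 ± 0.62 (SE, adjusted p = 0.482) was not called.

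Signalling and stress lists held fewer calls. Of 21 interferon response genes, 6 were lower (28.6%; 3 without combination replicate 5) and 2 higher, with BST2, a membrane protein that tethers virus particles, at -1.01 ± 0.18 (SE, adjusted p = 0.000477); BST2 had a slope of -0.28 in osimertinib and -1.39 in the combination. Of 19 genes of mitophagy and mitochondrial dynamics, which remove and divide mitochondria, 6 were lower (31.6%; 3 without combination replicate 5), with FIS1, a fission receptor of the outer membrane, at -0.74 ± 0.14 (SE, adjusted p = 0.000699). With the total count in the fit, 1 interferon response gene and 0 genes of mitophagy and dynamics were called lower (3 of each list at an unadjusted p under 0.05). Of 22 p53 targets 3 were lower and 2 higher, of 19 NF-kB and cytokine genes 2 were lower, of 13 immediate early genes 3 were lower, and of 12 squamous differentiation genes 1 was lower. Solute carriers, a large mixed class, had 39 higher (17.4%) and 36 lower (16.1%) of 224, near the percentages over all genes, and host genes of small nucleolar RNAs had 3 higher of 21.

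RNA processing genes and nuclear RNAs were more often higher than lower. Of 25 splicing factors and CLK kinases, 13 were higher (52.0%) and 3 lower, with a median slope of 0.37; the higher count ranged from 11 to 13 over the fits without 1 library, and was 0 by edgeR with the total count in the fit (5 at an unadjusted p under 0.05), where the median slope was 0.19. SRSF11, an SR-related splicing protein, had 283, 379.6, 356, 517 and 416 CPM in osimertinib and 424, 586, 661, 841 and 1165 CPM in the combination, with combination replicate 5 highest, and its slope was 0.86 ± 0.12 (SE, adjusted p = 9.95e-05). TRA2A, a splicing regulator, had a slope of 0.80 ± 0.11 (SE, adjusted p = 0.000105). CLK1, a kinase that phosphorylates SR proteins, had 133, 172, 158, 233 and 191 CPM in osimertinib and 203, 268, 259, 380.1 and 420.3 CPM in the combination and a slope of 0.68 ± 0.12 (SE, adjusted p = 0.000392). Some transcripts of CLK1 are known to be kept in the nucleus with introns, and a count per gene does not separate those from spliced mRNA.

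Of 14 genes of a list of nuclear RNAs, which also holds the protein-coding cyclins CCNL1 and CCNL2, 6 were higher (42.9%) and 1 lower. With the total count in the fit, 3 were called higher. NEAT1, the RNA scaffold of paraspeckles, had 426, 613, 687, 893 and 768 CPM in osimertinib and 1001, 1103, 1458, 1678 and 2403 CPM in the combination and a slope of 0.87 ± 0.12 (SE, adjusted p = 9.81e-05). NEAT1 was lower in each osimertinib library than in any combination library, whatever the share. KCNQ1OT1, an imprinted nuclear RNA, had 1.28, 1.3, 2.68, 3.74 and 3.21 CPM in osimertinib and 1.79, 3.39, 4.54, 8.09 and 14.9 CPM in the combination and a slope of 1.85 ± 0.23 (SE, adjusted p = 5.1e-05), a 3.6-fold rise per doubling. CCNL2, cyclin L2, had a slope of 0.87 ± 0.12 (SE, adjusted p = 0.000105). The summed level of the list rose by 1.16 per doubling (exact permutation, adjusted p = 0.00198, n = 10).

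Several classes of symbols were more often higher than lower. Of 435 numbered zinc finger genes, mostly DNA-binding repressors, 148 were higher (34.0%) and 28 lower (6.44%). Of 264 LINC genes 68 were higher and 12 lower, of 431 antisense genes 114 were higher and 15 lower, and of 163 ribosomal protein pseudogenes 51 were higher and 6 lower. The percentages higher of the last 3 classes, 25.8%, 26.5% and 31.3%, stand beside 22.6% of the 3910 tested genes of lowest level. Antisense symbols and their sense partners cannot be told apart without strand, and pseudogenes may take reads of their parent genes. Of 8 tested nuclear copies of mitochondrial genes 5 were higher, and their summed level rose by 1.15 per doubling (exact permutation, adjusted p = 0.00132, n = 10); they are near-identical to the mRNAs that make the share, so this is not a separate measure.

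**Figure D3:**
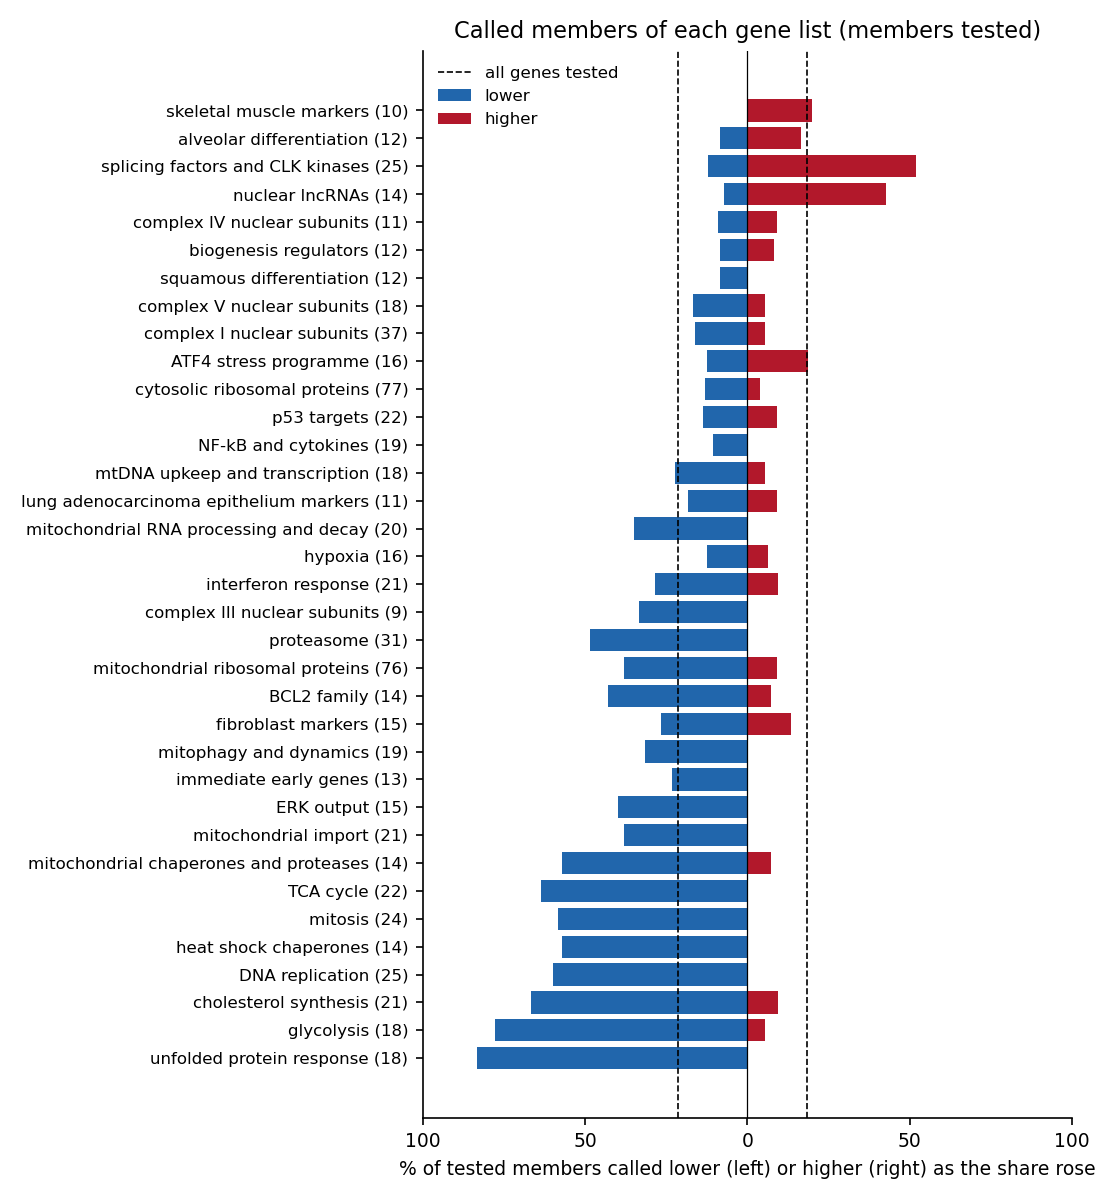
Percentage of the tested members of each list (number in brackets) called lower, to the left, or higher, to the right, as the share rose; dashed lines mark 21.2% lower and 18.2% higher over all genes tested, and lists run from the lowest median slope at the bottom to the highest at the top. The unfolded protein response (15 of 18 lower) and glycolysis (14 of 18 lower) stand at the bottom, and splicing factors (13 of 25 higher) near the top.

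The largest slopes among named genes with a mean log2 CPM of at least 2 included genes outside the lists above. COL1A2, a chain of type I collagen and a fibroblast marker, had 110.0, 63.5, 56.6, 33.0 and 42.0 CPM in osimertinib and 57.2, 54.8, 20.1, 20.8 and 12.7 CPM in the combination and a slope of -1.58 ± 0.17 (SE, adjusted p = 3.26e-05). TXNDC5, a disulfide isomerase, had 20.8, 11.3, 16.9, 5.33 and 6.96 CPM in osimertinib and 10.4, 4.1, 4.32, 2.12 and 1.59 CPM in the combination and a slope of -1.84 ± 0.24 (SE, adjusted p = 6.87e-05). EGLN1, the oxygen-sensing prolyl hydroxylase, had a slope of -1.34 ± 0.16 (SE, adjusted p = 5.34e-05), and CAVIN1, a coat protein of caveolae, -1.28 ± 0.12 (SE, adjusted p = 2.32e-05). In the other direction, DNAJC15, a co-chaperone of the mitochondrial inner membrane, had 3.8, 2.85, 3.7, 12.5 and 6.67 CPM in osimertinib and 6.58, 12.1, 13.7, 20.6 and 32.1 CPM in the combination and a slope of 1.58 ± 0.21 (SE, adjusted p = 9.55e-05). ZSCAN4, known in mouse embryonic stem cells for telomere maintenance, had 4.11, 4.12, 3.99, 15.3 and 10.7 CPM in osimertinib and 5.45, 8.25, 10.3, 16.0 and 20.0 CPM in the combination and a slope of 1.59 ± 0.21 (SE, adjusted p = 7.68e-05). ANKRD36C and NPIPB5 had slopes of 1.64 and 1.54, but both belong to families of near-identical copies and are uncertain. COL4A3, a collagen of basement membranes, had 1.79, 10.1, 3.28, 11.9 and 7.54 CPM in osimertinib and 10.6, 7.92, 18.2, 12.6 and 65.0 CPM in the combination; its slope of 1.74 ± 0.36 (SE, adjusted p = 0.00161) rested on combination replicate 5 and was not called without it (adjusted p = 0.121).

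**Figure D4:**
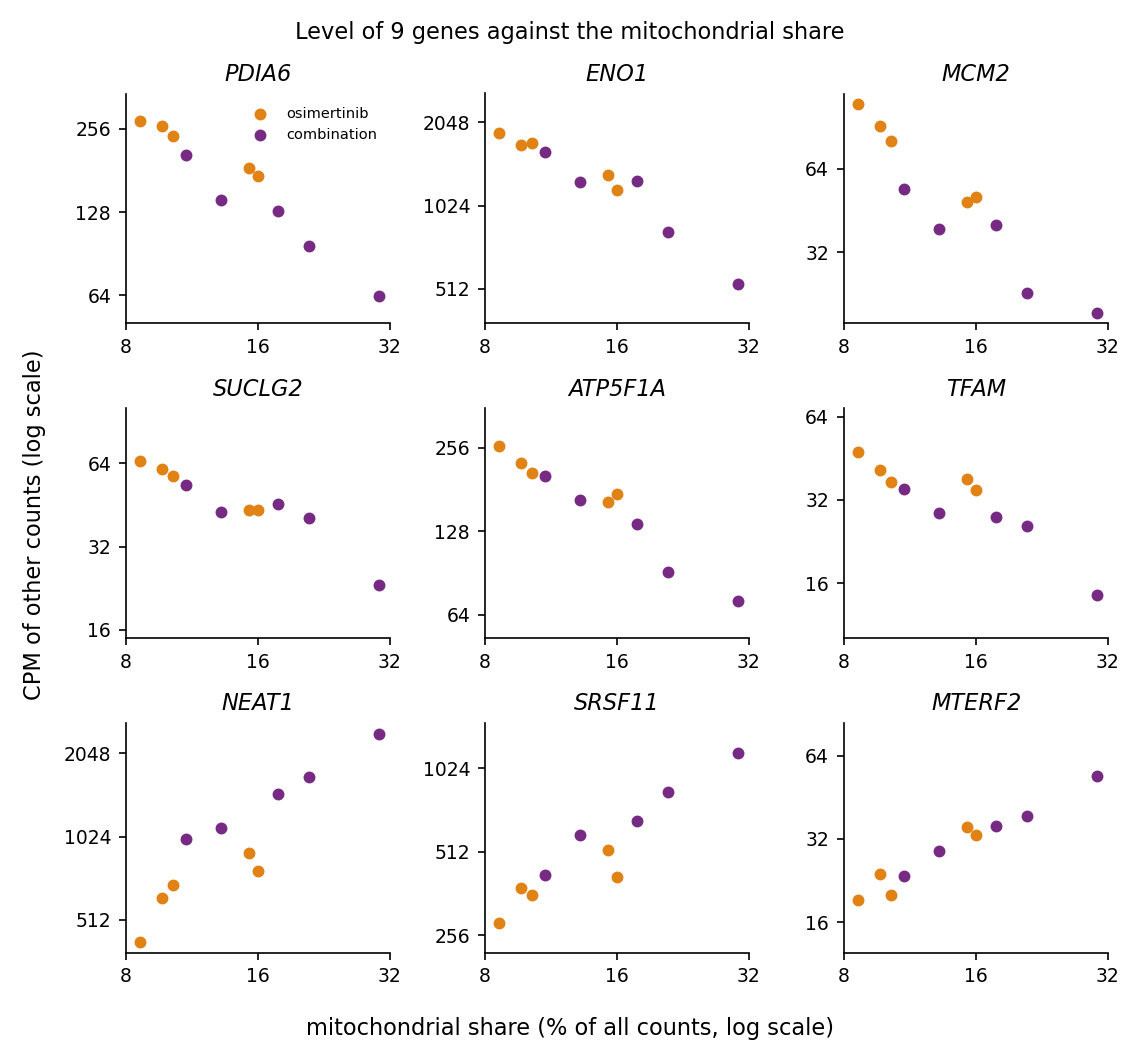
Level of 9 genes against the mitochondrial share (percent of all counts), both on log axes. Each point is 1 library, with osimertinib in orange and the combination in purple. Levels are CPM of all counts but the 13 mitochondrial mRNAs, divided by TMM factors. PDIA6, ENO1, MCM2, SUCLG2, ATP5F1A and TFAM run down and NEAT1, SRSF11 and MTERF2 run up, with the combination libraries of highest share at the ends.

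Markers of lung differentiation and of host cells were followed beside these groups. NKX2-1, the lineage factor of lung adenocarcinoma, had 34.8, 63.5, 51.6, 65.5 and 75.9 CPM in osimertinib and 60.0, 75.8, 93.2, 106 and 156 CPM in the combination and a slope of 0.87 ± 0.13 (SE, adjusted p = 0.000132), and AGER, an alveolar receptor, 1.05 ± 0.14 (SE, adjusted p = 8.06e-05). CDH1, E-cadherin, had 1457, 1051, 1135, 829 and 760.2 CPM in osimertinib and 1058, 811, 737, 645 and 539 CPM in the combination and a slope of -0.71 ± 0.11 (SE, adjusted p = 0.000194). The summed level of 11 lung epithelial markers did not pass the test (slope -0.07, exact permutation, adjusted p = 0.656, n = 10). The summed level of the macrophage markers, 12.4 to 19.4 CPM, fell by 0.31 per doubling (exact permutation, adjusted p = 0.0218, n = 10), but CSF1R, a growth factor receptor with 5.57 to 14.3 CPM, made up most of it. CSF1R had a slope of -0.72 ± 0.16 (SE, adjusted p = 0.00255) and was the 1 member called of 4 tested; CD68, at 0.20, LYZ, at 0.12, and ITGAM, at -0.35, were not called. The summed level of the adipocyte markers, 2.71 to 10.8 CPM, rose by 0.99 (exact permutation, adjusted p = 0.00584, n = 10), with 2 of 4 tested members called higher, and 1 without combination replicate 1 or 5. Skeletal muscle markers summed to 88.2 to 195 CPM in osimertinib and 155 to 1048 CPM in the combination, and their slope of 0.81 did not pass (exact permutation, adjusted p = 0.339, n = 10); 2 of the 10 tested were called higher. Of 15 fibroblast markers 4 were lower and 2 higher, and of 12 alveolar differentiation genes 2 were higher and 1 lower. The summed level of the fibroblast markers did not pass the test (slope -0.26, exact permutation, adjusted p = 0.385, n = 10). By edgeR 0 of 5 endothelial, 3 neutrophil and 2 lymphocyte markers tested were called, and at an unadjusted p under 0.05 1 of them, a neutrophil marker, was; DESeq2 called 0 of the endothelial and neutrophil markers. TNNI2, a fast muscle troponin that was among the muscle markers called, had 29.3, 36.5, 36.0, 76.6 and 51.0 CPM in osimertinib and 73.5, 122, 135, 207 and 314 CPM in the combination, with a slope of 1.31 ± 0.13 (SE, adjusted p = 2.98e-05). TNNI2 does not stand for the muscle list. In combination replicate 2 it made up most of the muscle sum of 155 CPM, but in replicate 5 the sum was 1048 CPM. The median slope of the list fell to -1.45 in 1 of the fits without a single library. With the mean log2 level of the muscle markers in the fit, 5919 genes were called. Fewer cells of a type and less RNA per cell cannot be told apart in bulk libraries.

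Each arm gave slopes of the same direction for most called genes. Fitted apart, osimertinib had 1303 calls (9.05% of 14402 tested; 3.92% higher and 5.13% lower) and the combination 5060 (35.5% of 14247). Of 1294 osimertinib calls also tested in the combination, 1224 had the same sign there (94.6%), and of 4953 combination calls also tested in osimertinib, 4377 did (88.4%), beside 73.8% of all 13947 genes tested in both. The 922 genes called in both made up 70.8% of the osimertinib calls and 18.2% of the combination calls. The arms share no library. A test of the difference between the slopes called no gene by edgeR (0 of 15639; smallest adjusted p = 0.111; 1723 at an unadjusted p under 0.05) and 126 by DESeq2. Among the genes of smallest p was KRT5, a basal keratin, with 10.0, 4.86, 13.1, 72.1 and 35.1 CPM in osimertinib and 11.4, 6.49, 8.02, 3.8 and 5.08 CPM in the combination. It was high in the 2 osimertinib libraries of highest share and low throughout the combination, and the difference of its slopes was -4.14 (adjusted p = 0.111).

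**Figure D5:**
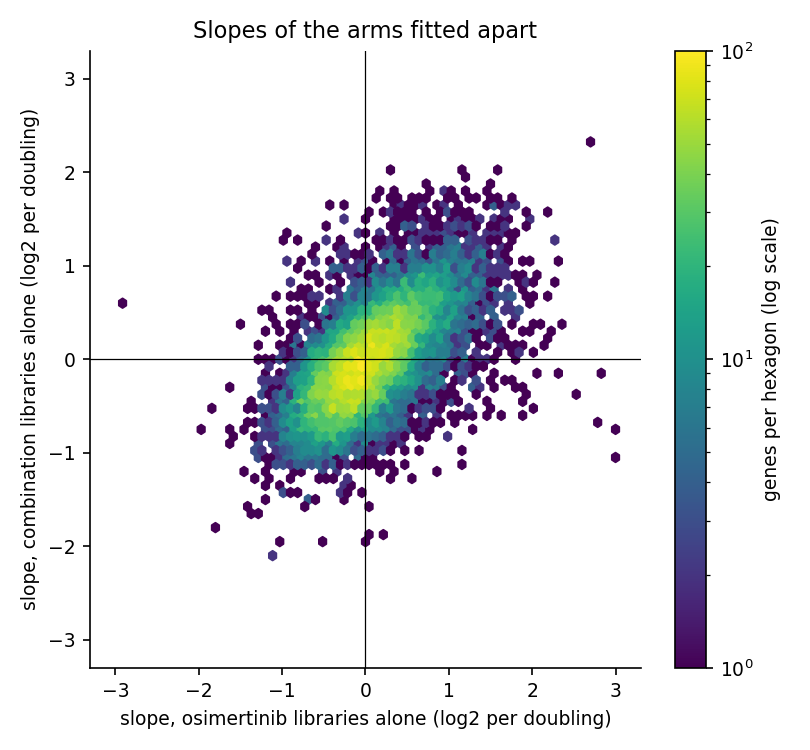
Slope of each gene in the 5 osimertinib libraries alone (x axis) and in the 5 combination libraries alone (y axis), both as log2 change per doubling of the share, for the 13947 genes tested in both; colour gives genes per hexagon on a log scale, and values beyond 3 on either side are drawn at the edge. Most genes (73.8%) lie in the lower left or upper right, where the sign is the same.

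The comparison of the arms with each other changed when the share was in the fit. Without the share in the fit, 1849 genes differed between the combination and osimertinib (11.8% of those tested), 1168 higher (7.47%) and 681 lower (4.35%) in the combination. With the share in the fit, 208 did (1.33%), 129 higher and 79 lower, and 198 of these were among the 1849. Of the 1849, 1221 were also called for the slope (66.0%), beside 39.5% of all genes tested. All 1221 had the sign that a higher share in the combination gives, and the share was 0.59 doublings higher there on average. Both fits use the same 10 libraries and the share differs between the arms. Overlap and shared sign are therefore partly built in and are no separate evidence. Both counts of arm calls rested on single libraries. With the share, the count was 0 by edgeR without osimertinib replicate 4 (1656 at an unadjusted p under 0.05). It was 16 without combination replicate 1 and 33 without osimertinib replicate 5. Without the share, the count was 36 without combination replicate 3 and 5012 without combination replicate 1.

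Genes that differed between the arms at equal share included CLDN2, a pore-forming claudin of tight junctions, with 53.4, 27.8, 35.5, 28.9 and 63.4 CPM in osimertinib and 12.5, 14.7, 10.5, 6.26 and 6.74 CPM in the combination. Each osimertinib library was above each combination library, and the difference with the share in the fit was -1.86 ± 0.27 (SE, adjusted p = 0.0126). PTHLH, parathyroid hormone-related protein, had 41.1, 29.1, 27.5, 39.0 and 43.5 CPM in osimertinib and 15.9, 17.5, 15.1, 13.9 and 8.86 CPM in the combination, again without overlap, and differed by -1.23 ± 0.19 (SE, adjusted p = 0.0126). PIM1, a survival kinase, had 28.2, 16.4, 29.3, 23.4 and 19.8 CPM in osimertinib and 51.8, 41.7, 50.9, 51.4 and 54.9 CPM in the combination and differed by 1.09 ± 0.17 (SE, adjusted p = 0.0126), with a slope on the share of 0.00 that was not called. WLS, which carries Wnt proteins to the surface, differed by -0.58 ± 0.10 (SE, adjusted p = 0.0179), and MCAM, an adhesion molecule, by -0.93 ± 0.16 (SE, adjusted p = 0.0178). TNNI2 was higher in the combination by 1.02 ± 0.14 (SE, adjusted p = 0.0126), and SYT8, a synaptotagmin, by 0.98 ± 0.13 (SE, adjusted p = 0.0126). None of these 7 kept an adjusted p under 0.05 without osimertinib replicate 4 (edgeR, adjusted p = 0.0506 to 0.0828). PTHLH, PIM1 and MCAM were also lost without combination replicate 1, MCAM and WLS without osimertinib replicate 5, and WLS without combination replicate 4.

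The same slope was fitted in the 9 control and thio libraries, which the share of the exposed tumours did not define. There the share ranged 1.32-fold in control and 1.49-fold in thio, and the median SE of a slope was 0.50, against 0.14 in the exposed libraries. By edgeR 1 of 15113 genes was called (0.00662%; 1715 at an unadjusted p under 0.05), and 243 by DESeq2. Of the 5894 genes called in the exposed libraries and tested here, 3064 had the same sign (52.0%). The difference between exposed and unexposed slopes, in a fit of all 19 libraries, was called for 1006 of 16750 genes (6.01%), 709 higher (4.23%) and 297 lower (1.77%) in the exposed. The narrow range of shares without osimertinib limits what the 9 libraries can show.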

How the data were processed

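Tumour mRNA was captured on poly-T beads and made into libraries with a kit that does not mark strand, per the labels' protocols. The submitters' processing notes name FastQC, Trimmomatic, STAR and hg38; the counting tool, annotation, versions and any removal of mouse reads are not stated. The deposited values are raw counts of reads per gene symbol, taken as the authors left them, with 31276 genes. Members, gene lists and tests were chosen with earlier results of these data known, and genes were named by a rule: up to 10 called genes of largest slope each way with a mean log2 CPM of at least 2, up to 4 of smallest p per list, 8 genes fixed by name and the leading arm differences, of which a subset is printed.

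Counts were fitted with edgeR 4.0.16 (glmQLFit and glmQLFTest, R 4.3.3) on arm and centred log2 share, with TMM factors and library sizes that leave out the 13 mitochondrial mRNAs, after filterByExpr (count minimum 10, total 15), with 7 residual degrees of freedom. The 13 were not tested. Library measures were tested by exact permutation of the share within arms (14400 orders, 2-sided), of which the smallest possible p is 6.94e-05. Genes tested held 99.7% to 99.9% of other counts. Alternatives used DESeq2 1.42.0, limma 3.58.1, other scalings, filters and covariates, and fits without single libraries; thinning, a level minimum and the fit of exposed against unexposed slopes were added after seeing the data. The fits were tested on simulated counts. In all, 42 lists of 804 genes were used, of which 799 are in the table. Of the symbols, 4390 share their counts exactly with another, 278 of them among the genes tested. No sequences are given, since the reference at hand is of another species than the symbols.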

Additional observations from a re-analysis of the deposited data

Results flagged for a closer look

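Of 262 groups of 5 or 4 libraries looked at for a library far from the others, 5 were flagged by Dixon's ratio of the gap to the nearest library over the whole range (critical value 0.71 for 5 samples); chance flags about 1 in 20 groups. Combination replicate 5, the library of highest share, stood apart in 3 of them. COL4A3 was at 65.0 CPM there and at most 18.2 CPM in the other combination libraries (ratio 0.82). TAGLN, an actin-binding protein of smooth muscle and fibroblasts, was at 23.3 CPM against at most 15.3 CPM (0.74), and the slope of TAGLN was not called without that library. The endothelial markers summed to 22.4 CPM against at most 10.8 CPM (0.841). In osimertinib, the lymphocyte markers summed to 2.19 CPM in replicate 4 against at most 1.36 CPM (0.795), and the erythroid markers to 2.11 CPM in replicate 1 against at most 0.585 CPM (0.827). The sums of the last 2 lists are of few reads, and HBA1 of the erythroid list was at 0 in all 10 libraries.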

How the results depend on the processing

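No paired analysis was possible because the replicate numbers in the titles are tied to no shared animal, batch or day, and the share is a value of each library. The 6172 slope calls became 1068 with the total count added, 0 with the olfactory receptor level added (1732 at an unadjusted p under 0.05), 3767 over all 19 libraries, 1303 in osimertinib alone, 2284 without combination replicates 3 and 5 together and 602 with a slope of at least 0.5 as a minimum, and ranged from 3743 to 6293 without single libraries. DESeq2 gave 6442 and limma voom 6312. The arm effect with the share became 571 with DESeq2, 489 with no filter and 111 without combination replicates 3 and 5, with 0 to 303 without single libraries; without the share, 3684 with DESeq2, 12 without combination replicates 3 and 5, and 36 to 5012. The slope difference between arms became 126 with DESeq2 and 239 with no filter, with 0 to 10; the slope in control and thio libraries 243 and 55, with 0 to 5. Leaving out osimertinib replicate 5, a planned setting for its title number, is the same fit as that without it. The cause of these moves was not tested.

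Slopes of single genes that reversed were those of COL4A3 with the total count added (-0.11) and of TERT (-1.10) and PLIN1 (-0.12) with the olfactory receptor level added. Measures that did not pass the test also reversed: cytosolic ribosomal proteins with the percent share (-0.000194), with CPM over all counts (-0.15) and over fits without single libraries (-0.0153 to 0.246), the part of the 100 highest genes without single libraries (-0.0208 to 0.0195) and without combination replicates 3 and 5 (0.0412), epithelial markers (-0.139 to 0.0911 without single libraries, 0.15 without 3 and 5), endothelial markers (-0.0558 to 0.645, and -0.16) and erythroid markers (-0.32 without 3 and 5). The planned measure of mitochondrial rRNA was not run. Depth limits scarce genes: host markers of a few CPM and TERT rest on few reads.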
